A study of Homo sapiens with 12 samples.

Results

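The locus described here is a 310 kb window of chromosome 1, 94970000 to 95280000 on the hg19 build, that holds F3 and the H3K27ac peaks around it. F3 encodes tissue factor and lies on the minus strand at about 94994700 to 95007400, so that its transcript starts at the higher coordinate and the sequence upstream of it has larger numbers. The members were chosen by position, as every called peak that overlapped the window. The window itself was selected on these peak lists, for a cluster of H3K27ac at 95060000 to 95140000, upstream of F3. It held 103 of the 190767 peaks of the series, and these merged into 33 of 58994 regions.

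The peaks came from ChIP-seq of H3K27ac, a mark of active promoters and enhancers, in untreated cells of 3 human pancreatic ductal adenocarcinoma lines. BxPC3 was represented by H3K27ac replicates 1 and 2, Panc327 by replicates 1 and 2, and SUIT2 by replicates 1 and 2, and each line also had 2 input libraries of chromatin without antibody. Each H3K27ac library had a deposited peak list of its own, and the inputs served as background in the calling. The title of the study names SIRT6 and the stress response, but the labels name no treatment, introduced mutation or control among the lines. Mutations that the lines may carry were not examined. BxPC3 and SUIT2 are established lines, and the labels say no more of Panc327 than its name. No source used here says that the replicates were separate cultures, so the spread between them may be technical. An exact permutation test of 2 libraries against 2 cannot give a two-sided p below 0.333. The lines were therefore not tested against each other, and the comparisons describe these libraries.

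Tissue factor is a membrane protein that binds coagulation factor VII and its active form and so starts the extrinsic pathway of blood clotting. The complex also signals through protease-activated receptors. Many carcinomas make tissue factor, pancreatic cancer among them, where it is known for its link with thrombosis. In other human cells the F3 promoter is known to respond to AP-1, NF-kB, SP1 and EGR1, transcription factors that act downstream of growth factor, stress and inflammatory signals.

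The F3 promoter is shown because the only H3K27ac region of the window that contained the F3 start was called in all 6 libraries. The sequence is RefSeq's, 250 bases before the start to 50 after it, at chr1:94541710-94542009 on the minus strand of GRCh38.p14, written 5′ to 3′. That build is not the build of the peaks, so motif positions are counted from the start and were not placed on the peaks. Capitals mark matches to the motifs named in the text.
F3 promoter: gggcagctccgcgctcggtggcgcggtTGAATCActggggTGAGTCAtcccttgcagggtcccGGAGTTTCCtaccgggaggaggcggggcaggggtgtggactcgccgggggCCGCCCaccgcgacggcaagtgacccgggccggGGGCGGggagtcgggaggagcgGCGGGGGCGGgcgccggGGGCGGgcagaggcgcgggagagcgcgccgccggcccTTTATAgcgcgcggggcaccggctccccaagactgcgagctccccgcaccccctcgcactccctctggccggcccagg

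Both strands were searched for the letters that AP-1, NF-kB, SP1 and EGR1 are known to bind and for a TATA box. The AP-1 motif TGANTCA was found as TGAATCA at positions -223 to -217 and as TGAGTCA at -210 to -204. Of the 35116 promoters of the table, 7.71% held this motif, with any base at N, and 0.515% held it at least 2 times. A stricter form of the motif was not counted. The NF-kB-like motif GGANTTTCC was found as GGAGTTTCC at -187 to -179, and 1.64% of the promoters held it. A promoter with both features, 2 AP-1 motifs and the NF-kB-like motif, occurred 4 times in the table, or in 0.0114% of it, a combination counted after the F3 sequence had been seen. The GC box GGGCGG, a motif of SP1, was found 4 times between -137 and -60, once as CCGCCC, and 9.06% of the promoters held at least as many. The EGR1 motif GCGGGGGCG at -82 to -74 overlapped one of these GC boxes and was held by 5.07% of the promoters. The TATA box TATAAA was found on the opposite strand, as TTTATA at -28 to -23, and 11.5% of the promoters held it on either strand. The sequence was 77.3% G and C, against a median of 58.7% over the table. These matches describe letters and not bound factors.

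BxPC3 carried by far the most called H3K27ac around F3. Peaks covered 63.8 and 73.7 kb of the 310 kb in BxPC3 replicates 1 and 2, 6.90 and 25.1 kb in Panc327, and 10.01 and 10.14 kb in SUIT2. Both BxPC3 libraries lay above the 4 others, and the Panc327 libraries differed more from each other than either did from the SUIT2 libraries. The means were 68.7 ± 6.99 kb for BxPC3, 16.03 ± 12.9 kb for Panc327 and 10.1 ± 0.0919 kb for SUIT2 (SD, n = 2 each). BxPC3 thus had 4.29 times the covered length of Panc327 and 6.82 times that of SUIT2 in the window. Against Panc327 replicate 1 alone the ratio was 9.96, and against replicate 2 alone 2.73. Over the whole lists the ratios of BxPC3 to Panc327 and to SUIT2 were 1.29 and 0.837, so BxPC3 covered less than SUIT2 genome-wide.

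BxPC3 also had the most peaks. The window held 27 and 35 peaks in BxPC3, with 7 and 20 in Panc327 and 8 and 6 in SUIT2. As a share of a library's own covered length, the window made up 0.131 and 0.135% in the BxPC3 libraries, 0.0203 and 0.0543% in those of Panc327, and 0.0167 and 0.0160% in those of SUIT2. The order of the lines by this share was the same as by covered length, with Panc327 replicate 2 between BxPC3 and the other libraries.

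**Figure D1:**
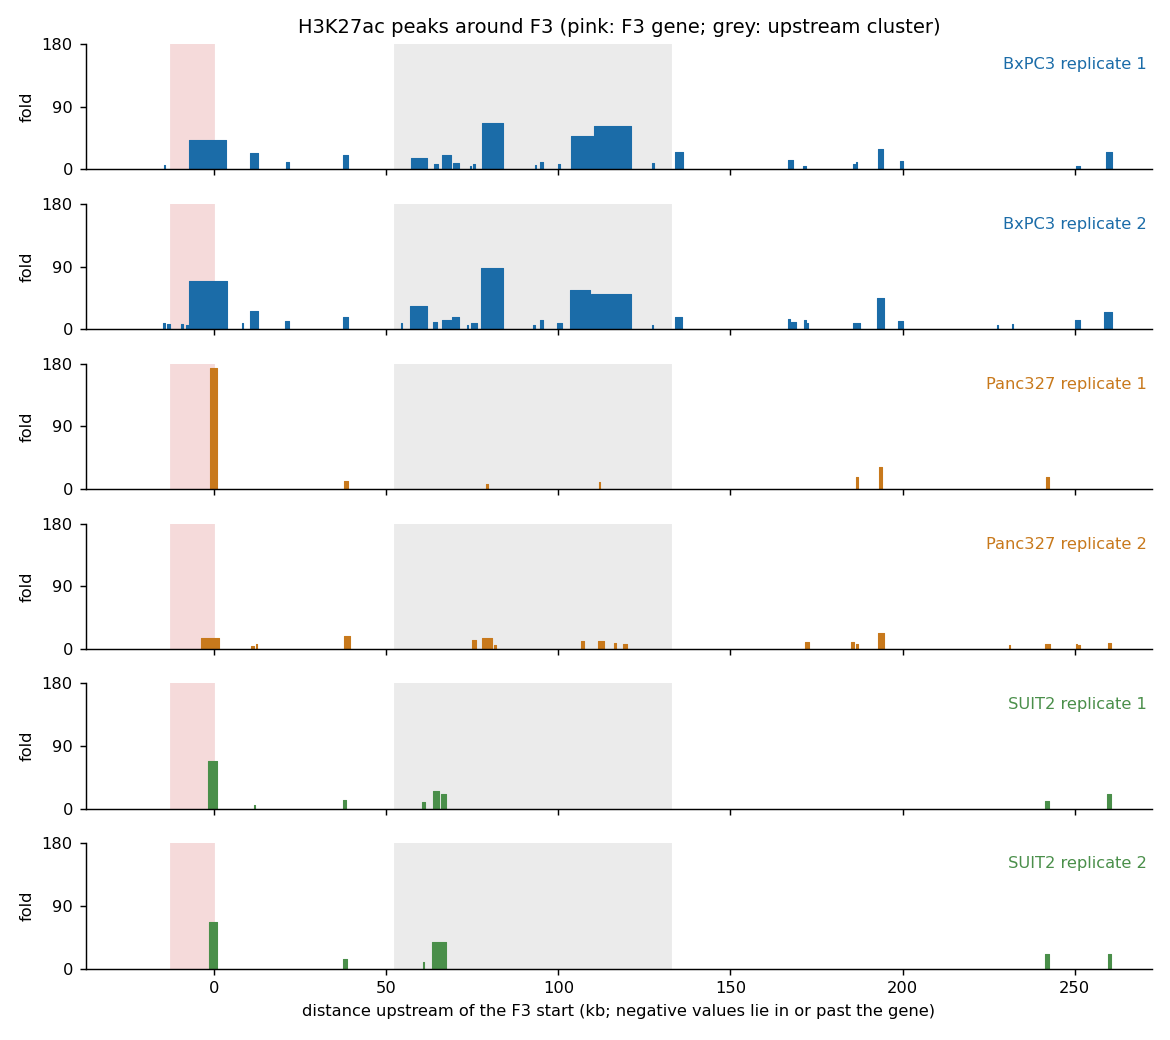
Each panel shows a library's peaks, drawn from start to end along the distance upstream of the F3 start (kb), with the authors' fold over local background as height (linear, not comparable between lists). A reader should see a dense block of BxPC3 peaks in the grey cluster, a peak at the F3 start in every library, and no SUIT2 peak for 173.9 kb beyond the near end of the cluster.

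The lists differed in scale. They held 27776 (Panc327 replicate 1) to 38335 (BxPC3 replicate 2) peaks, covering 34.1 Mb (Panc327 replicate 1) to 63.3 Mb (SUIT2 replicate 2), and read depth was not stated in them. The median fold of a list ran from 11.1 in Panc327 replicate 2 to 23.2 in Panc327 replicate 1, so a fold is read here only against the other peaks of its own list. The fold is the authors' own value per peak, and a percentile is a peak's place in its own list. Input background was recovered from fold and −log10 p. It is given as a ratio to the lowest background recovered at any peak of the same list, which stands for the genome-wide level. At the peaks of the window its medians were 1.70 and 1.27 for BxPC3, 1.46 and 1.42 for Panc327 and 1.099 and 1.06 for SUIT2. Over all peaks the medians were 1.23 and 1.08 in BxPC3, with 1.26 and 1.34 in Panc327 and 1.08 and 1.00 in SUIT2. The input was thus above its own list's median at these peaks in every library, by the most in BxPC3 replicate 1, and the part of this in the covered length was not tested. The fold itself is taken over this background.

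Of the 33 merged regions, 23 were marked in BxPC3, meaning that both its libraries had a peak in them, 7 in Panc327 and 6 in SUIT2. Among all merged regions the marked shares were 49.7% in the BxPC3 libraries, 33.7% in those of Panc327, and 45.6% in those of SUIT2. BxPC3 alone marked 10 regions with no peak in the 4 other libraries, a class that held 12.9% of all merged regions. Without BxPC3 replicate 1 this count was 19. It was 8 with peaks of −log10 q of at least 20 and 7 with the same number of peaks per list. BxPC3 and Panc327 shared 4 that SUIT2 lacked (3.82% of all), BxPC3 and SUIT2 shared 2 that Panc327 lacked (4.18%), and Panc327 and SUIT2 shared 1 that BxPC3 lacked (1.17%). Without Panc327 replicate 1, BxPC3 and Panc327 shared 7 and Panc327 alone had 1. Regions of Panc327 alone (5.79% of all) or of SUIT2 alone (13.0% of all) numbered 0 each. Only 2 regions were marked in all 3 lines, a class of 21.6% of all. The window was chosen on these calls, so nothing is read from these shares.

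In each of the remaining regions, at least 1 line had a peak in only 1 of its libraries. In 5 regions, against 10.8% of all, at least 1 line was marked while another had a peak in only 1 of its libraries. In all 5 of them both BxPC3 libraries and Panc327 replicate 2 had a peak and Panc327 replicate 1 had none. The last 9 (26.7% of all) were marked in no line. BxPC3 replicate 2 alone called 8 of these and Panc327 replicate 2 alone called 1. Panc327 replicate 2 had a peak in 6 regions where replicate 1 had none, and replicate 1 in 0 where replicate 2 had none.

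**Figure D2:**
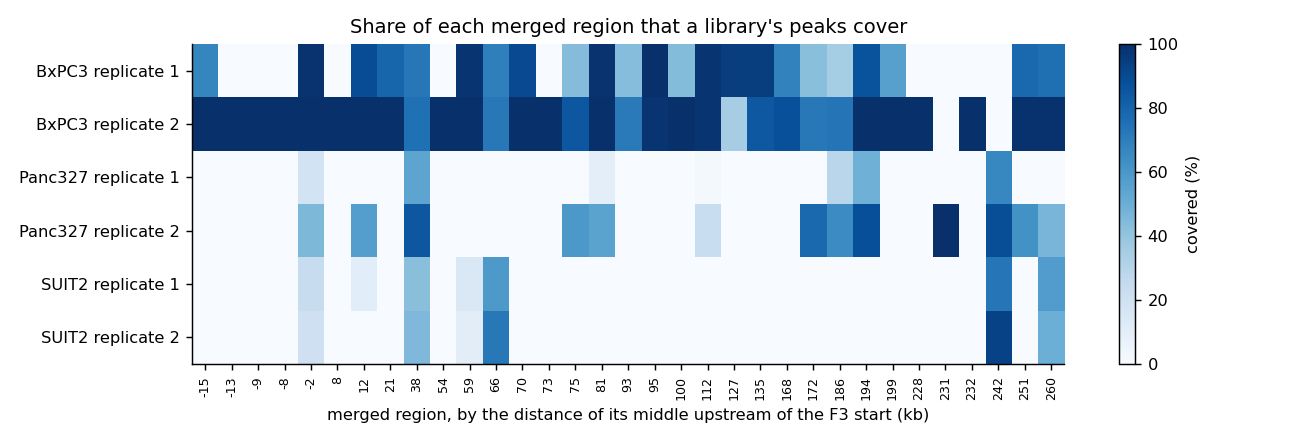
The 33 merged regions of the window are columns, ordered by distance of their middle upstream of the F3 start (kb), the libraries are rows, and the colour gives the percent of a region that the library's peaks cover. BxPC3 replicate 2 has a peak in all but 2 of them, and the Panc327 and SUIT2 rows are filled in different columns between 54 and 128 kb upstream.

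The region over the F3 start was called in every library, and its extent differed between the lines. It ran from 95000042 to 95011096, over the 5′ part of the gene and the sequence just upstream. A single BxPC3 peak spanned 10901 bp in replicate 1 and 11055 bp in replicate 2, the Panc327 peak 2064 and 5044 bp, and the SUIT2 peak 2615 and 2317 bp. Both BxPC3 peaks were wider than the 4 others. Of the 34113 and 38335 peaks of their lists they ranked 34 and 46 by width.

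By strength the promoter peak was high in every list. The fold was 42.1 and 69.0 for BxPC3, 173.9 and 16.2 for Panc327 and 68.5 and 67.2 for SUIT2. By −log10 q these peaks stood at percentiles 97.6 and 98.5 of their BxPC3 lists, 96.9 and 82.2 of the Panc327 lists, and 83.0 and 83.5 of the SUIT2 lists. The Panc327 pair, far apart in fold, thus also differed in percentile, with replicate 1 close to the BxPC3 libraries and replicate 2 close to SUIT2. The input background under this peak was also set against the lowest of its list. The ratio was 2.75 and 1.69 in BxPC3, with 1.02 and 2.35 in Panc327 and 1.08 and 1.11 in SUIT2. The lower Panc327 fold thus stood over the higher background, whose part in it was not tested. The promoter held the highest fold of the window in Panc327 replicate 1 and in both SUIT2 libraries, but not in BxPC3 or Panc327 replicate 2.

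The summit of this peak lay on either side of the F3 start, which is known here to the nearest 100 bases. It was 0.421 and 0.508 kb upstream in BxPC3 and 0.359 kb upstream in Panc327 replicate 2. In Panc327 replicate 1 it was at -0.360 kb, inside the gene, and in SUIT2 at -0.228 and -0.273 kb. The libraries therefore split by line in BxPC3 and SUIT2, while the Panc327 summits were 719 bp apart. The summits of the replicates were 87 bp apart in BxPC3 and 45 bp in SUIT2.

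**Figure D3:**
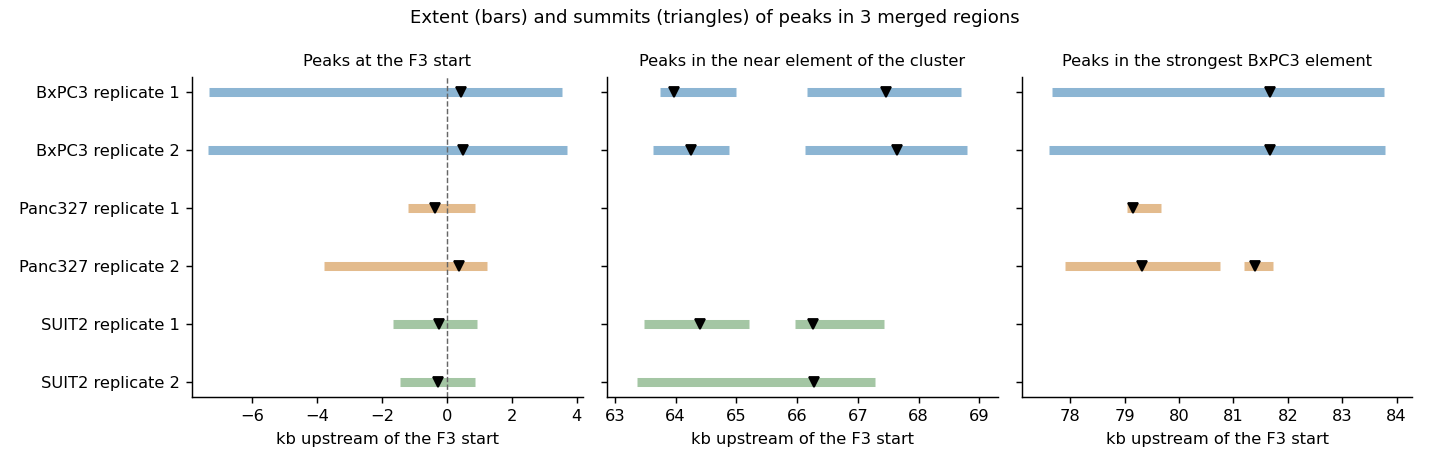
Bars show the extent and triangles the summit of each peak in 3 merged regions, by library, along the distance upstream of the F3 start (kb); the dashed line is the F3 start. The BxPC3 bars are the longest at the start, at 10901 and 11055 bp, the near element has no Panc327 peak, and the strongest BxPC3 element has no SUIT2 peak.

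Within the gene itself, peaks covered 7343 and 8439 bp of 12.7 kb in the BxPC3 libraries, 1200 and 3799 bp in those of Panc327, and 1677 and 1442 bp in those of SUIT2. Every base of the gene that Panc327 or SUIT2 peaks covered was also covered in BxPC3. Small peaks of 483 and 597 bp further into the gene were called in BxPC3 replicate 2 alone. Past the 3′ end, a BxPC3-only region at 94992647 to 94993150 had folds of 6.59 and 9.03.

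Between the promoter and the cluster, 1 element was shared by all libraries. The region at 95044764 to 95046860, 38.4 kb upstream, had folds of 20.9 and 17.7 for BxPC3, 11.2 and 19.0 for Panc327 and 13.3 and 14.3 for SUIT2. Its peaks spanned 1519 and 1574 bp in BxPC3, with 1135 and 1783 bp in Panc327 and 889 and 949 bp in SUIT2. The BxPC3 summits were 1 bp apart there and lay between the SUIT2 summits, which were 85 bp apart, whereas the Panc327 summits lay at 95045898 and 95046278, further upstream.

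Closer to the gene, the region at 95017739 to 95020201, 11.6 kb upstream, had folds of 24.2 and 25.6 over 2191 and 2463 bp in BxPC3. By −log10 q these peaks stood at percentiles 67.0 and 70.8 of their lists. Elsewhere its peaks were low in their own lists. Panc327 replicate 2 had small peaks with a highest fold of 6.85, at percentile 15.1 by −log10 q. SUIT2 replicate 1 had a peak of 264 bp with a fold of 5.59, at percentile 1.60. Panc327 replicate 1 and SUIT2 replicate 2 had none. A region at 95028020 to 95029164, 21.2 kb upstream, was called in BxPC3 alone, with folds of 10.8 and 11.6.

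The upstream cluster, 80 kb of the window, held most of the covered length of BxPC3. Peaks covered 37.1 and 39.7 kb of it in BxPC3, or 46.4 and 49.7% of its length, 983 bp and 8.69 kb in Panc327, and 3.92 and 4.42 kb in SUIT2. The means were 38.4 ± 1.85 kb in the BxPC3 libraries, 4.84 ± 5.45 kb in those of Panc327, and 4.17 ± 0.354 kb in those of SUIT2 (SD, n = 2 each). BxPC3 covered 7.95 times as much of the cluster as Panc327 and 9.22 times as much as SUIT2, and 39.1 times as much as Panc327 replicate 1 alone or 4.42 times as much as its replicate 2 alone. The gap between BxPC3 and either line was larger than the spread of the replicates, and that between Panc327 and SUIT2 was not. The cluster was selected on these same peak lists for its H3K27ac, so nothing is read from these gaps. Over the F3 gene the ratios of BxPC3 to Panc327 and to SUIT2 were 3.16 and 5.06, and 6.58 or 2.08 to Panc327 replicate 1 or 2 alone. Beyond the cluster, peaks covered 10.8 and 14.8 kb in BxPC3, 2.72 and 8.23 kb in Panc327 and 2.33 and 2.45 kb in SUIT2. The ratios there were 2.33 to Panc327 and 5.34 to SUIT2, and 4.70 or 1.55 to Panc327 replicate 1 or 2 alone. Of the covered bases of the window, the cluster took 58.2 and 53.9% for BxPC3, 14.2 and 34.5% for Panc327 and 39.1 and 43.6% for SUIT2.

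**Figure D4:**
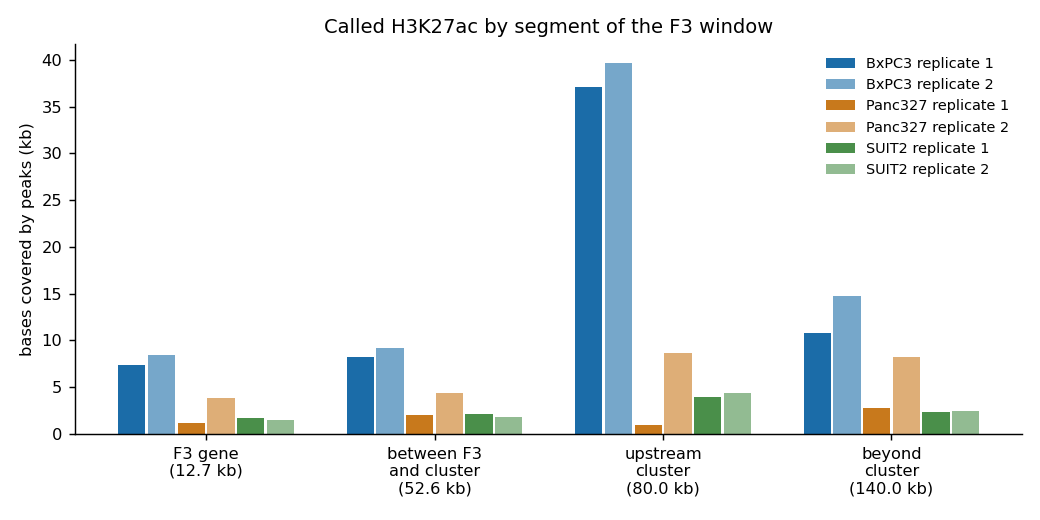
Bars give the length covered by peaks (kb) in 4 segments of the window, for each library, with the segment's length below. In the upstream cluster the BxPC3 bars reach 37.1 and 39.7 kb and the highest other bar, Panc327 replicate 2, 8.69 kb.

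Panc327 and SUIT2 used separate parts of the cluster. SUIT2 peaks lay at its near end, 60.5 to 67.4 kb upstream of F3 in replicate 1 and 60.5 to 67.3 kb in replicate 2. Panc327 peaks began further away, 79.0 to 112.1 kb upstream in replicate 1 and 75.0 to 119.8 kb in replicate 2. Panc327 and SUIT2 peaks shared 0 bases of the cluster. BxPC3 peaks spread over both parts, from 57.0 to 127.8 kb in replicate 1 and from 54.2 to 127.4 kb in replicate 2. They held 100% of the Panc327 bases of the cluster in either library, and 86.3 and 68.3% of the SUIT2 bases in replicates 1 and 2. From 95074838 to 95248709, a stretch of 173.9 kb, neither SUIT2 library had a peak. The longest such stretch of the window was 51.7 kb in Panc327 and 30.3 kb in BxPC3.

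The strongest BxPC3 element was the region at 95085001 to 95091193, 80.7 kb upstream. Its folds of 67.2 and 88.4 in BxPC3 were above those of the F3 promoter in the same libraries. By −log10 q it ranked 328 and 254 in its lists, at percentiles 99.0 and 99.3, and the BxPC3 summits, at 95089068 and 95089063, were 5 bp apart. Panc327 marked the region with highest folds of 7.99 and 15.8 over 622 and 3398 bp. Its strongest summits lay at 95086551 and 95086716, nearer to F3 than those of BxPC3. Panc327 replicate 2 also had a weaker peak of 546 bp there, with a fold of 5.96 and its summit at 95088795, close to the BxPC3 summits. SUIT2 had no peak in it.

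The broadest element was the region at 95110852 to 95128533, 17.7 kb long and 112.3 kb upstream. BxPC3 called it as 2 adjoining peaks in each library, the nearer 6544 and 5855 bp wide and the farther 10772 and 11529 bp wide. The farther peak ranked 35 and 37 by width in its lists. Folds were 48.1 and 55.8 for the nearer peak and 61.8 and 51.0 for the farther one in replicates 1 and 2. By −log10 q the farther peak was the stronger in both, with 306.9 and 349.2 for the farther and 231.6 and 319.9 for the nearer peak. Panc327 replicate 1 had a peak of 361 bp here with a fold of 9.57. Panc327 replicate 2 had peaks adding up to 4122 bp, with a highest fold of 12.1. SUIT2 again had none.

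At its end nearer to F3, the cluster had elements that BxPC3 shared with SUIT2 and not with Panc327. The region at 95064393 to 95069241, 59.4 kb upstream, was 4737 and 4849 bp wide in BxPC3 with folds of 16.7 and 33.0. SUIT2 called only 711 and 504 bp of it, with folds of 9.65 and 9.33. At 95070765 to 95076201, 66.1 kb upstream, was the one region of the cluster where SUIT2 came close to BxPC3 in covered length. Peaks covered 3766 and 3919 bp of this region in BxPC3 and 3207 and 3918 bp in SUIT2. They were not the same bases, as the BxPC3 peaks reached 95076090 and 95076201 and those of SUIT2 95074837 and 95074682. Its highest folds were 21.3 and 13.8 in BxPC3 and 25.3 and 38.6 in SUIT2. The SUIT2 peaks were of middle rank in their own lists, at percentiles 58.0 and 65.6 by −log10 q. The stronger BxPC3 summits lay 67.5 and 67.6 kb upstream, and each SUIT2 library had a summit 66.3 kb upstream.

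BxPC3 alone marked 5 of the 12 merged regions of the cluster, a class of 12.9% of all merged regions. The cluster was chosen on these calls, so nothing is read from this count. The widest of the 5 was at 95076626 to 95078625, with 1802 and 2000 bp and folds of 8.85 and 17.2, and the other 4 had folds of 5.61 to 12.9. The BxPC3-only region with the highest fold lay just past the cluster, at 95141272 to 95143667, with folds of 24.6 and 17.7. Further out, the BxPC3-only region at 95173982 to 95176360 had folds of 13.5 and 14.4 over 1619 and 2089 bp.

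Joined into larger units, the BxPC3 cluster was among those with the most covered bases of its lists. Peaks within 10 kb of each other were stitched, and the stitched clusters of a list were ranked by covered bases. The cluster upstream of F3 ranked 3 of 21022 in BxPC3 replicate 1, with 14 peaks over 79.2 kb, and 4 of 22760 in replicate 2, with 15 peaks over 81.7 kb. The highest stitched cluster in the same stretch ranked 14154 of 17481 and 2271 of 18328 in Panc327, and 4152 of 19263 and 3665 of 19732 in SUIT2. The F3 promoter fell in a separate stitched cluster that ranked 166 and 118 in BxPC3. With 20 kb the promoter and the upstream peaks joined into 1 unit of 150.9 and 150.7 kb, which ranked 2 and 1 in BxPC3, and with 5 kb the broadest piece upstream ranked 23 and 26. Ranked by width times fold at 10 kb, the cluster stood at 5 and 8. Its parts near to and far from F3 were bridged by the BxPC3-only region at 95100134 to 95100902, with −log10 q of 10.9 and 11.8. With peaks of −log10 q of at least 20 only, the mean rank of the 2 BxPC3 libraries was 48.5, against 3.5 with all peaks.

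**Figure D5:**
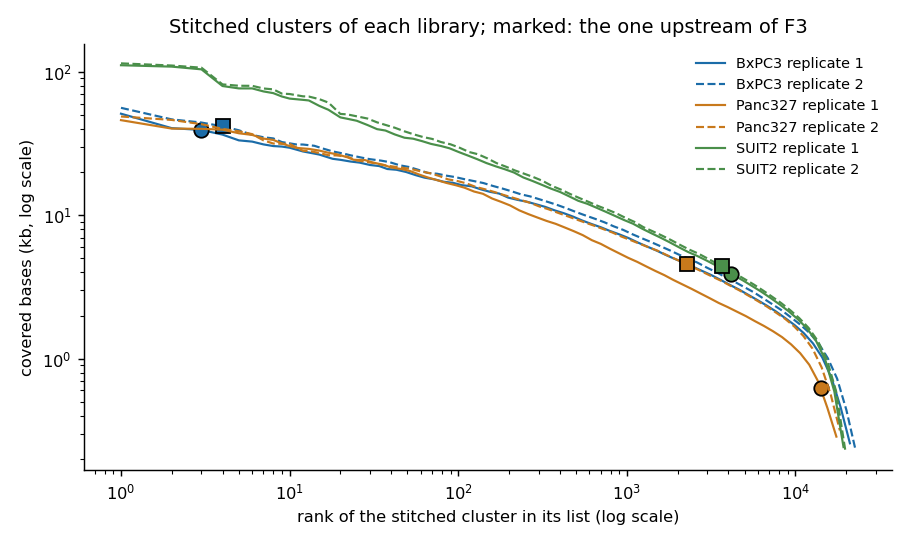
Lines give the covered bases of the stitched clusters of each library by rank (both axes logarithmic, peaks within 10 kb joined), and circles (replicate 1) and squares (replicate 2) mark the cluster upstream of F3. The BxPC3 marks stand at ranks 3 and 4, and the highest of the other 4 marks, Panc327 replicate 2, at rank 2271.

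Beyond the cluster, both BxPC3 and Panc327 marked 2 regions that SUIT2 lacked. The region at 95199964 to 95201881, 193.5 kb upstream, had folds of 28.9 and 44.6 in BxPC3 and 32.2 and 23.1 in Panc327, and no peak in SUIT2. It was the strongest Panc327 element of the window after the promoter in replicate 1 and the strongest of all in replicate 2. The region at 95192280 to 95195040 followed the same pattern, with folds of 11.1 and 9.64 in BxPC3 and 17.2 and 10.4 in Panc327.

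Only 2 regions had no BxPC3 peak. At 95248710 to 95250178, 242.0 kb upstream, folds were 17.9 and 6.87 in Panc327 and 11.6 and 20.8 in SUIT2, and the SUIT2 summits coincided at 95249210. Both lines marked it in both libraries. The other was a peak of 333 bp in Panc327 replicate 2 with a fold of 6.34. A region at 95265966 to 95268159, 259.7 kb upstream, had folds of 24.4 and 24.4 in BxPC3, at percentiles 69.6 and 72.6 of the lists by −log10 q, and folds of 21.5 and 20.9 in SUIT2, at percentiles 50.2 and 52.9. Panc327 replicate 2 had a fold of 8.11 there and Panc327 replicate 1 no peak.

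By the Jaccard index, the replicates of BxPC3 and SUIT2 overlapped more than those of Panc327. The Jaccard index in the window, covered bases in common over those in either list, was 0.811 for the BxPC3 pair, 0.267 for the Panc327 pair and 0.779 for the SUIT2 pair. Over the whole lists the same pairs had 0.814, 0.519 and 0.868. The index is limited where lists cover unequal lengths, and the Panc327 libraries covered 6.90 and 25.1 kb of the window. Panc327 replicate 1 had a peak in 0 regions of the window where replicate 2 had none. The low Panc327 index is therefore not read as a different placement of peaks. Between lines, the index in the window depended on the Panc327 library. For BxPC3 replicates 1 and 2 it was 0.0841 and 0.0788 with Panc327 replicate 1, and 0.295 and 0.284 with Panc327 replicate 2. With SUIT2 replicates 1 and 2, Panc327 replicate 1 had 0.265 and 0.278 and Panc327 replicate 2 had 0.177 and 0.179. By this index the order turned, with Panc327 replicate 1 closer to SUIT2 and Panc327 replicate 2 closer to BxPC3. The unequal covered lengths limit the index here too. The shares of a library's bases that follow count a peak in at least 1 library of the other line. Of the bases of Panc327 replicate 1 in the window, 85.3% lay in BxPC3 peaks and 53.7% in SUIT2 peaks. For Panc327 replicate 2 these shares were 87.2 and 22.7%. BxPC3 covered the most of the window, which favours it in such shares. The 4 pairs of a BxPC3 and a SUIT2 library had 0.0949 to 0.126. Over the whole lists the indices were 0.346 to 0.456 for BxPC3 with Panc327, 0.385 to 0.399 for BxPC3 with SUIT2, and 0.280 to 0.344 for Panc327 with SUIT2. Panc327 replicate 1 with SUIT2 was nearly the same there, at 0.287 and 0.280, as in the window. In regions that both libraries of a line called, the strongest summits were within 200 bp of each other in 19 of 23 regions in BxPC3, with 4 of 7 in Panc327 and 5 of 6 in SUIT2.

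At the borders of the window, peaks just inside and just outside were set side by side. Past the far border every list had a peak that started between 95284965 and 95285422, with folds of 36.9 and 40.6 in the BxPC3 libraries, 75.8 and 18.2 in those of Panc327, and 17.0 and 20.2 in those of SUIT2. On the other side the first peak inside had folds of 6.59 and 9.03 in BxPC3, and it was the F3 promoter peak in the 4 other libraries. The last peak inside at the far border was the region 259.7 kb upstream in all lists but Panc327 replicate 1, where it was the one 242.0 kb upstream. The last peak before the window lay at a different place in each line. It started at 94891310 and 94891422 in BxPC3, with folds of 11.1 and 6.19. In Panc327 it started at 94883424 and 94883009, with folds of 103.2 and 19.5. In SUIT2 it started at 94929226 and 94929059, with folds of 5.95 and 8.37. These folds are therefore not set against each other. In the order of the RefSeq genes on GRCh38.p14, F3 follows ABCD3, a peroxisomal fatty acid transporter, with a pseudogene listed between them. It is followed by LOC124904223, MIR12133, LOC105378861 and SLC44A3-AS1, and SLC44A3 is the next protein-coding gene. Peaks were not assigned to genes, and F3 transcript levels were not analysed here.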

How the data were processed

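H3K27ac ChIP-seq peak lists of 6 libraries, 2 for each of 3 lines, were used; the 6 inputs had no list of their own here. The submitters' processing notes name Bowtie 1.1.1, bcl2fastq 1.8.4, MACS2 and the hg19 build; the settings of MACS2 are not given in the sources used here. Every deposited peak carries the authors' fold, a ratio of pile-up over local background, and their −log10 of the p-value and of the q-value, as deposited.

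The locus and all measures were chosen with earlier results of these data known. Peaks on chromosomes 1 to 22 and X were merged into regions when they shared at least 1 bp, which left 58994, as did bedtools 2.31.1. Marked means called in both libraries of the line. Regions described in full contain the F3 start, reach at least 2 kb in a library, or have the highest fold among the regions of 1 line alone; others were picked after their values were seen. Background was solved from fold and −log10 p, which explained 99.9 to 100.0% of peaks within 0.001, with fitted pile-up scales of 0.752 and 0.652 in BxPC3. The computations were checked on simulated data. Other genes of the tissue factor pathway need hg19 positions and were not analysed here. Python 3.11.15, numpy 2.4.6, pandas 2.3.3 and matplotlib 3.10.9 were used.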

Additional observations from a re-analysis of the deposited data

How the results depend on the processing

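No test was made, so the alternatives bear on values and counts. With peaks of −log10 q of at least 20, or the same number of peaks per list, SUIT2 covered 9.95 kb of the window. Regions of BxPC3 alone numbered 8 and 7 in these settings, against 10 with all peaks. The stitched BxPC3 cluster had a mean rank of 3.5, which became 24.5 with 5 kb stitching, 1.5 with 20 kb, 6.5 by width times fold and 48.5 at −log10 q of at least 20; that of SUIT2 was 7563 by width times fold. At the same threshold the Jaccard index was 0.836 for the BxPC3 pair, 0.276 for Panc327 and 0.797 for SUIT2. Panc327 input background, relative to the lowest of its list, was 1.33 in a 2 Mb window. When 50% of a region had to be covered, 0 regions were marked in all lines, 1 in BxPC3 and Panc327 only and 1 in BxPC3 and SUIT2 only. Leaving out each library in turn, peaks numbered 7 to 20 in Panc327, and regions 10 to 19 of BxPC3 alone (19 without BxPC3 replicate 1), 4 to 7 of BxPC3 and Panc327 (7 without Panc327 replicate 1) and 0 to 1 of Panc327 alone. The covered length of Panc327 was 25.1 kb without replicate 1 and 6.90 kb without replicate 2. The ratio of BxPC3 to Panc327, an alternative chosen after seeing the data, was then 2.73 to 9.96 in the window, 2.08 to 6.58 over F3, 4.42 to 39.1 in the cluster and 1.55 to 4.70 beyond it. The labels give no pairing of libraries between the lines, so no paired analysis was made. Absence of a peak means no call at the authors' threshold, and depth was not stated.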
